A study of Mus musculus with 44 samples.

Results

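The genes described here are the metallothioneins Mt1, Mt2 and Mt3 and the zinc transporters Slc30a1 and Slc39a4. They were found by matching the gene identifiers of the count files to these symbols, and all 5 were present among the 55416 genes counted. Their RNA was followed in 44 libraries from the brain, liver and small intestine of 15 mice (strain C57BL/6J, aged about 2 months). The labels name no mutant allele, and each library came from the total homogenate of a tissue. The first group was 8 mice given manganese (Mn, as hydrated manganese chloride at about 50 mg per kg each day; 3 females and 5 males). The other was 7 mice given vehicle (3 females and 4 males), whose composition the labels do not state. Mn brain and liver had 8 libraries each and vehicle brain and liver 7 each, and small intestine had 7 of each, because a small intestine library of Mn animal 2601 was not analysed here. Animals are named by the number in their labels. The series title concerns motor disease and tryptophan breakdown under raised brain manganese, and no label puts a question to these 5 genes.

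Metallothioneins are small proteins rich in cysteine that hold zinc, copper and cadmium in clusters. Mt1 and Mt2 are made in most tissues. In the liver they are known to answer to zinc, glucocorticoids, inflammation and food restriction. Free zinc is sensed by the transcription factor MTF1, which binds short DNA motifs called metal response elements in the promoters of Mt1, Mt2 and Slc30a1. Slc30a1 (ZnT1) exports zinc through the plasma membrane. Mt3 is known for its expression in the brain and does not follow zinc as Mt1 and Mt2 do. Slc39a4 (ZIP4) imports dietary zinc at the luminal face of enterocytes. Its level in the mouse intestine is known to rise when zinc is scarce, and its loss in humans causes acrodermatitis enteropathica.

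The start regions are shown because the metal response element is the motif through which MTF1 is known to act on Mt1, Mt2 and Slc30a1, with Mt3 set beside them. RefSeq (GRCm38.p6) windows of 300 bases around the transcription start were searched on both strands for the core of the element, TGCACNC or TGCGCNC. Of the 5 genes, 4 had a window and Slc39a4 had none. The matches are in capitals, with 11 flanking bases before and 12 after, all printed along the plus strand, which is the strand of each gene.
Mt1, chr8:94179055-94179084: cggtcccgctgTGCACACtggcgctccagg
Mt1, chr8:94179080-94179109: ccagggagctcTGCACTCcgcccgaaaagt
Mt1, chr8:94179098-94179127: cgcccgaaaagTGCGCTCggctctgccaag
Mt2, chr8:94172384-94172413: agcatcgcctcTGCACCCggcccctcgggc
Mt2, chr8:94172479-94172508: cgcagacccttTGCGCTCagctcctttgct
Mt2, chr8:94172557-94172586: ggggggagggcGTGTGCAggctctgtccca
Mt2, chr8:94172611-94172640: gaattcgggtcGTGCGCAggcccaggggcg
Mt3, chr8:94152623-94152652: cgggacagcagTGCACACacacggagagca
Slc30a1, chr1:191906727-191906756: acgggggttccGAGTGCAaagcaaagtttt
Slc30a1, chr1:191906800-191906829: gcctccgggccGAGCGCAgtcgccgcggac
Of 32851 windows of the same length, 25.7% held at least 1 match, 7.11% at least 2, 1.97% at least 3 and 0.517% at least 4. Mt1 held 3 matches, Mt2 held 4, Slc30a1 held 2 and Mt3 held 1. Where the capitals begin with G, the motif lies on the minus strand. A match describes the letters of the window and is not a measured binding site.

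RNA was read by 3′ TagSeq, which counts reads at the 3′ end of polyadenylated transcripts, so that a count depends little on transcript length. Reads assigned to genes numbered 1796385 to 3798810 per library. Levels are given as CPM, the reads of a gene scaled to a common total of assigned reads, with no further scaling. The tissue labels matched their markers: hepatocyte markers summed to 44400 to 58200 CPM in liver, enterocyte markers to 13800 to 22200 CPM in small intestine and neuron markers to 4120 to 4770 CPM in brain. RNA profiles of another tissue were present in part of the libraries. The liver profile made up 2.08% to 3.15% of 5 Mn brains, and that of small intestine 2.64% and 5.14% of 2 others, whereas the vehicle brains held at most 0.119%. Small intestine made up 0.0207% to 1.5% of Mn livers and 0.372% to 5.05% of vehicle livers. Brain RNA made up over 1% of 3 Mn livers, 2 vehicle livers, 2 Mn small intestines and 2 vehicle small intestines. In liver and small intestine the Mn and vehicle libraries carried sample numbers from separate runs, and a batch along them cannot be told apart from treatment.

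The 5 genes differed mainly by tissue. In vehicle animals Mt1 was the most abundant member in every tissue, Mt3 was a brain gene, Slc39a4 was a gene of intestine and liver, and Slc30a1 had nearly the same CPM everywhere. Between genes, TagSeq levels depend little on transcript length, but reads lost to mapping at several places can differ from gene to gene.

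**Figure D1:**
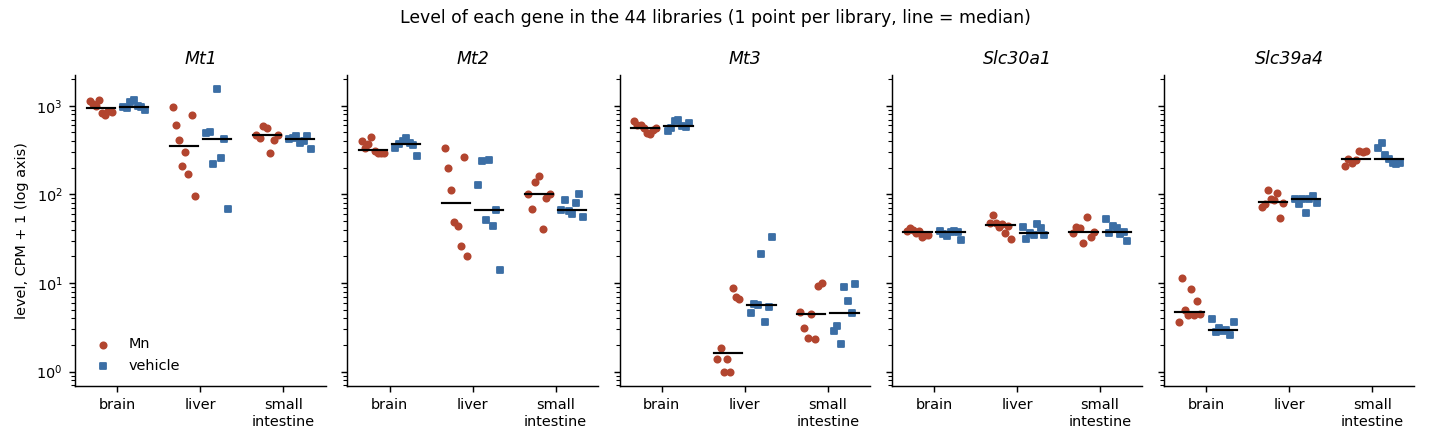
Level of each of the 5 genes in every library, as CPM plus a pseudocount of 1 on a log axis, with Mn (red circles) left of vehicle (blue squares) in each tissue. The black line is the median, and Mt1 and Mt2 spread far more in liver than in brain or small intestine.

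In vehicle liver, Mt3 averaged 10.3 ± 11.3 CPM, against 607 ± 62.2 CPM in vehicle brain (SD, n = 7 each). In vehicle small intestine it averaged 4.39 ± 3.03 CPM (SD, n = 7). Mt3 was lower in liver than in brain by a log2 difference of −5.59 ± 0.31 (SE, edgeR adjusted p = 1.94e-20), and in small intestine than in brain by −6.89 ± 0.33 (edgeR adjusted p = 8.3e-23). Slc39a4 averaged 273 ± 61.7 CPM in vehicle small intestine, 81.5 ± 10.7 CPM in vehicle liver and 2.13 ± 0.474 CPM in vehicle brain (SD, n = 7 each). It was higher in small intestine than in liver by 1.24 ± 0.15 on the log2 scale (edgeR adjusted p = 7.08e-10). In all 14 animals with the 3 tissues, of both treatments, Slc39a4 was highest in small intestine, next in liver and lowest in brain.

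Mt1 averaged 502 ± 493 CPM in vehicle liver and 409 ± 48.3 CPM in vehicle small intestine, against 1000 ± 90.5 CPM in vehicle brain (SD, n = 7 each). Mt2 averaged 111 ± 94.1 CPM in vehicle liver and 72.4 ± 16.0 CPM in vehicle small intestine, against 364 ± 52.8 CPM in vehicle brain. Within animals, Mt2 was higher in brain than in liver in 15 of 15 and Mt1 in 14 of 15, the exception being vehicle animal 2627. Both genes were higher in brain than in small intestine in 14 of 14 animals. Between liver and small intestine the order was mixed, with Mt1 higher in liver in 7 of 14 animals.

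Of the 5 genes, 3 passed the test between vehicle liver and vehicle brain, 5 between small intestine and brain, and 4 between small intestine and liver. These counts stand beside backgrounds of 83.4%, 84.6% and 68.0% of 14984 genes tested, so that a passing gene is the rule between tissues. Mt1 in liver over brain (log2 difference −0.11 ± 0.38, edgeR adjusted p = 0.789) and Mt1 in small intestine over liver (−0.83 ± 0.38, adjusted p = 0.0522) did not pass. Mt2 in liver over brain was at −0.80 ± 0.45 (adjusted p = 0.0979). With the animal as a block it was at −1.09 (edgeR adjusted p = 0.0175), while Mt2 in small intestine over liver, at −1.18 ± 0.47 (adjusted p = 0.0237), was at −0.90 with the block (adjusted p = 0.066). Without vehicle animal 2627, Mt1 in liver over brain was at −0.72 (edgeR adjusted p = 0.0496). Mt2 in liver over brain passed without animal 2573 (adjusted p = 0.0261) or 2627 (0.0421). In small intestine over liver, leaving out 1 of 2572, 2573 or 2627 ended the Mt2 call (adjusted p 0.0536 to 0.15), leaving out 2629 that of Mt3 (0.0511), and leaving out 1 of 2574, 2628, 2629 or 2630 brought Mt1 past the threshold (0.0240 to 0.0499). Over all alternatives the edgeR adjusted p of this Mt1 difference ran from 0.00729 to 0.714. The smallest value came under an alternative other than leaving out an animal.

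Slc30a1, the zinc exporter, had 37.1 ± 5.27 CPM in vehicle liver, 38.7 ± 7.29 CPM in vehicle small intestine and 35.2 ± 3.09 CPM in vehicle brain (SD, n = 7 each). Its tissue differences depended on the scaling of the libraries. TMM scaling shifted liver over brain by 0.855, small intestine over brain by 0.357 and small intestine over liver by −0.498 on the log2 scale. Under it the Slc30a1 differences were 0.93 ± 0.12, 0.50 ± 0.12 and −0.43 ± 0.12 (SE), with edgeR adjusted p-values of 2.97e-09, 0.000171 and 0.00153. With library totals alone they were 0.08, 0.14 and 0.07, and none passed (adjusted p 0.205 to 0.579). With totals alone, Mt1 in liver over brain was at −0.96 (adjusted p = 0.0211) and Mt2 at −1.68 (adjusted p = 0.000911), and of the 5 genes Slc39a4 alone passed between small intestine and liver.

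Manganese left the 5 genes without a call in any of the 3 tissues. In edgeR's quasi-likelihood test with Benjamini-Hochberg adjustment over all genes, 0 of 4 tested members passed in brain, 0 of 5 in liver and 0 of 4 in small intestine. The backgrounds were 0.575% of 12872 genes in brain, 1.17% of 10536 in liver and 0.459% of 11770 in small intestine. In brain this was 74 genes, of which 72 were higher with Mn. With the predicted reads of other tissues subtracted 5 brain genes passed, and with the shares of other tissues as covariates 0 passed. The brain background is therefore no plain rate of response to Mn. At an unadjusted p below 0.05 there were 0 members in brain, 2 in liver and 1 in small intestine, beside 1062, 1896 and 1439 of these genes. DESeq2 called 0 members in each tissue, beside 119, 365 and 143 genes.

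In brain, Mt1 ranged from 786 to 1150 CPM with a median of 937 in Mn animals, and from 894 to 1150 CPM with a median of 972 in vehicle animals. The groups overlapped, although 4 of 8 Mn brains lay below every vehicle brain. The log2 change was −0.07 ± 0.09 (SE), with a 95% interval of −0.26 to 0.13 (edgeR adjusted p = 0.963). Mt2 averaged 339 ± 55.0 CPM in Mn brain (n = 8) and 364 ± 52.8 CPM in vehicle brain (SD, n = 7), a log2 change of −0.10 ± 0.11 (edgeR adjusted p = 0.925).

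Mt3 in brain had a lowest, median and highest level of 474, 564 and 671 CPM in Mn animals, and of 514, 596 and 690 CPM in vehicle animals. Its log2 change was −0.11 ± 0.09 (SE; 95% interval −0.29 to 0.07; edgeR adjusted p = 0.851). Brain Slc30a1 had the narrowest spread of the group, at 31.8, 36.6 and 40.8 CPM in Mn animals and 29.4, 36.6 and 37.9 CPM in vehicle animals. Its log2 change was 0.04 ± 0.10 (95% interval −0.17 to 0.25; edgeR adjusted p = 0.983). The intervals of these brain genes leave out a change of 1 log2 unit in either direction.

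In liver, the spread between animals was far larger than the difference between the groups. Mt1 in the 8 Mn livers was lowest at 95.1, had a median of 353 and was highest at 976 CPM. In the 7 vehicle livers it was lowest at 67.0, had a median of 417 and was highest at 1560 CPM. The highest level was thus 10.3 times the lowest among Mn animals and 23.3 times among vehicle animals, and the groups overlapped throughout. The log2 change was −0.20 ± 0.55 (SE; 95% interval −1.35 to 0.95; edgeR adjusted p = 0.879).

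The extremes of liver Mt1 were vehicle males of the same number range, 2627 at 1560 CPM and 2630 at 67.0 CPM. Liver Mt2 ran from 19.2 to 334 CPM with a median of 78.8 in Mn animals, and from 13.0 to 242 CPM with a median of 66.1 in vehicle animals, a log2 change of 0.20 ± 0.64 (95% interval −1.14 to 1.53; edgeR adjusted p = 0.899). Without animal 2627 the Mt1 change was 0.52. The Mt2 change turned to −0.21, −0.12 and −0.02 without Mn animal 2602, Mn animal 2575 and vehicle animal 2628 in turn, and none of these passed. These intervals allow changes of about 1 log2 unit either way.

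Liver Slc30a1 had a lowest, median and highest level of 30, 44.2 and 57.5 CPM in Mn animals, and of 30.1, 35.4 and 45.0 CPM in vehicle animals. Of the 8 Mn livers, 4 lay above every vehicle liver and 1 below every one. The log2 change was 0.27 ± 0.10 (SE; 95% interval 0.05 to 0.48), with an unadjusted p of 0.0168 and an edgeR adjusted p of 0.180. Liver Slc39a4 averaged 83.2 ± 17.8 CPM in Mn animals (n = 8) and 81.5 ± 10.7 CPM in vehicle animals (SD, n = 7), a log2 change of 0.06 ± 0.13 (edgeR adjusted p = 0.842).

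In small intestine, Mt1 had a lowest, median and highest level of 296, 463 and 593 CPM in Mn animals, and of 323, 416 and 461 CPM in vehicle animals. Of the 7 Mn libraries, 4 lay above every vehicle library and 1 below every one, a log2 change of 0.20 ± 0.12 (95% interval −0.06 to 0.45; edgeR adjusted p = 0.558). Mt2 had 40.1, 98.7 and 161 CPM in Mn animals and 55.1, 65.7 and 98.9 CPM in vehicle animals. Its log2 change was 0.45 ± 0.21 (95% interval 0.00 to 0.89), and its unadjusted p of 0.0488 gave an edgeR adjusted p of 0.404. The Mt2 level exceeded the vehicle median in 6 of 7 Mn animals.

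Intestinal Slc30a1 averaged 38.4 ± 8.87 CPM in Mn animals and 38.7 ± 7.29 CPM in vehicle animals (SD, n = 7 each), a log2 change of 0.00 ± 0.14 (edgeR adjusted p = 0.997). Slc39a4, the importer that answers to zinc shortage in the mouse gut, averaged 262 ± 41.7 CPM in Mn animals and 273 ± 61.7 CPM in vehicle animals. Its log2 change was −0.03 ± 0.13 (95% interval −0.31 to 0.25; edgeR adjusted p = 0.957).

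**Figure D2:**
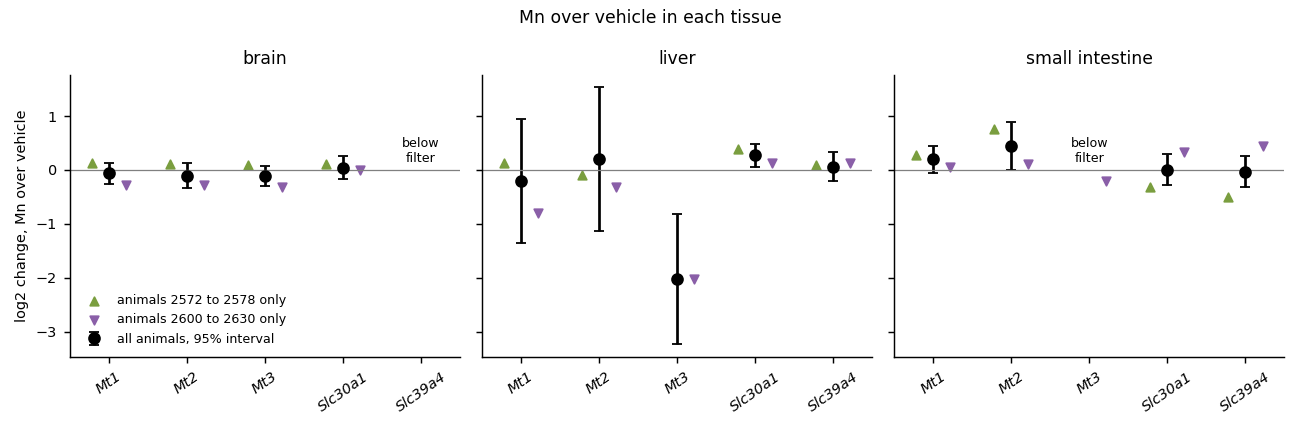
Change of each gene with Mn over vehicle on the log2 scale, by tissue, with the estimate over all animals and its 95% interval (black) and the estimates within animals 2572 to 2578 (green) and 2600 to 2630 (purple). Brain Mt1, Mt2 and Mt3 and intestinal Slc39a4 lie on opposite sides of 0 in the 2 number ranges; genes below the count filter have no estimate.

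The animal numbers fall into a range of 2572 to 2578 and a range of 2600 to 2630, each with both treatments, and the labels do not say what the ranges are. Inside each range the treatments had separate runs of animal numbers. Vehicle animals were 2572 to 2574 and 2627 to 2630, and Mn animals were 2575 to 2578 and 2600 to 2603. A difference between these runs cannot be told apart from treatment, here or in the range term below. In brain, Mt1 and Mt3, but not Mt2, passed the test between Mn and vehicle in the range 2600 to 2630, and no metallothionein passed it in the range 2572 to 2578. Among animals 2600 to 2630, brain Mt1 was 786, 833, 841 and 872 CPM in the 4 Mn animals, and 894, 972, 1000 and 1150 CPM in the 4 vehicle animals. Every Mn brain of that range was below every vehicle brain, and the log2 change was −0.28 ± 0.07 (SE, edgeR adjusted p = 0.0131). How many of all genes separate such small groups in this way was not counted, here or in the comparisons below.

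Brain Mt3 in the same range was 474, 489, 529 and 565 CPM in Mn animals and 576, 596, 633 and 690 CPM in vehicle animals, again without overlap, a log2 change of −0.32 ± 0.06 (edgeR adjusted p = 0.00408). Mt2 was at −0.28 ± 0.10 (adjusted p = 0.0733) and Slc30a1 at −0.01 ± 0.11. Thus 2 of 4 tested members passed, beside a background of 12.4% of 12914 genes. Among animals 2572 to 2578 the changes were 0.13 ± 0.09 for Mt1, 0.10 ± 0.10 for Mt2 and 0.08 ± 0.11 for Mt3, and 0 of 4 members passed at an adjusted or unadjusted p below 0.05, beside a background of 1.54% of 12831 genes.

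The difference between the ranges was tested as a treatment by range term, chosen after these values had been seen. In brain the term was −0.42 ± 0.12 for Mt1 (SE, edgeR adjusted p = 0.0257) and −0.41 ± 0.13 for Mt3 (adjusted p = 0.0440), and 2 of 4 members passed beside a background of 13.0% of genes. Passing this test was thus common among brain genes. Leaving out single animals ended the Mt1 call for 4 of 15 (2572, 2573, 2600 or 2627; adjusted p up to 0.0864) and the Mt3 call for 11 of 15 (adjusted p up to 0.134). Another tissue's profile made up over 2% of 4 of 4 Mn brains of the range 2600 to 2630 and of 3 of 4 of the range 2572 to 2578. With the predicted reads of other tissues subtracted, the term was −0.43 for Mt1 (edgeR adjusted p = 0.0199, 0.0129 to 0.0864 over its alternatives) and −0.41 for Mt3 (0.0369, 0.0137 to 0.134 over its alternatives).

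Intestinal Slc39a4 moved in opposite directions in the ranges. Among animals 2600 to 2630 it was 298, 304 and 309 CPM in the 3 Mn animals, and 220, 223, 228 and 252 CPM in the 4 vehicle animals. Among animals 2572 to 2578 it was 207, 224, 241 and 249 CPM in the 4 Mn animals, and 279, 329 and 383 CPM in the 3 vehicle animals. The groups overlapped in neither range, and the share of all genes without overlap was not counted. The log2 change among animals 2600 to 2630 was 0.45 ± 0.10 (edgeR adjusted p = 0.0463), and 1 of 5 tested members passed beside a background of 1.22% of 12048 genes. Among animals 2572 to 2578 it was −0.50 ± 0.13 (adjusted p = 0.174), and 0 of 4 members passed beside a background of 0.0680% of 11764 genes, with Mt1, Mt2 and Slc39a4 at an unadjusted p below 0.05. Mt2 there was at 0.76 ± 0.16 (adjusted p = 0.0906).

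The treatment by range term of intestinal Slc39a4 was 0.95 ± 0.16, with an unadjusted p of 1.39e-05. After adjustment in edgeR it was 0.0944 (0.0379 to 0.533 over its alternatives), and 0 of 4 members passed in small intestine and 0 of 5 in liver, beside a background of 0% in both (1006 and 824 genes, and 2 and 0 members, at an unadjusted p below 0.05). The smallest adjusted p came without vehicle animal 2574. Over all animals the change was near 0, as given above.

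**Figure D3:**
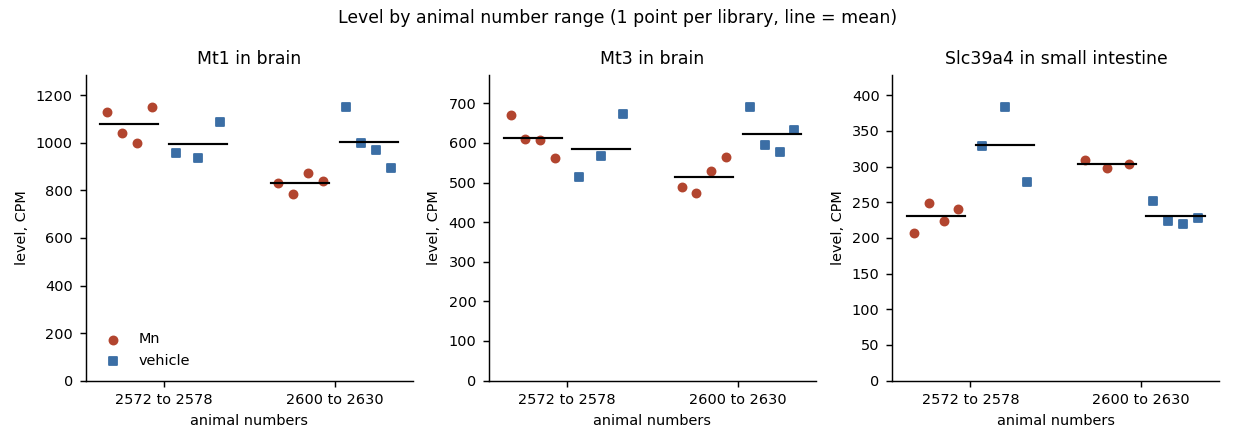
Level in CPM by animal number range for brain Mt1, brain Mt3 and intestinal Slc39a4, with Mn (red circles) left of vehicle (blue squares) and the mean as a line. In the range 2600 to 2630 the Mn animals are below vehicle for both brain genes and above vehicle for Slc39a4, and for Slc39a4 the order is turned round in the range 2572 to 2578.

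Low levels of Mt3 in liver and of Slc39a4 in brain went with RNA of other tissues. In homogenates, fewer cells of a type cannot be told apart from less RNA per cell. Liver Mt3 had a lowest, median and highest level of 0, 0.621 and 7.70 CPM in Mn animals, and of 2.62, 4.64 and 31.9 CPM in vehicle animals. The log2 change was −2.03 ± 0.57 (95% interval −3.23 to −0.82), with an unadjusted p of 0.00236 and an edgeR adjusted p of 0.0783 (5.25e-05 to 0.585 over its alternatives).

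The Mt3 reads of liver libraries were higher where the brain share was higher. The 5 Mn livers with brain shares of 0.157% to 0.199% held 0 to 2 reads, and Mn animals 2601 to 2603, with shares of 1.70% to 2.11%, held 12 to 22. The 5 vehicle livers with shares of 0.548% to 0.649% held 7 to 11 reads, and vehicle animals 2627 and 2630, with shares of 2.32% and 2.75%, held 46 and 59. Reads predicted from the share and the Mt3 level of vehicle brain were 2.00 to 3.09, 23.8 to 36.6, 8.07 to 9.28 and 30.9 to 32.3 in these 4 sets. By treatment, the 7 neuron markers summed to 30.1 to 124 CPM in Mn livers (median 38.8) and 42.1 to 154 CPM in vehicle livers (median 45.5). The 8 astrocyte markers summed to 999 to 1640 CPM in Mn livers (median 1410) and 1100 to 1220 CPM in vehicle livers (median 1180). Vehicle brains had a median astrocyte sum of 3620 CPM, of which brain shares of 0.157% to 2.75% would give far less. The astrocyte sum is therefore no measure of brain RNA in liver, and no Mn effect on astrocyte RNA is read from it. With the predicted reads subtracted, or without the livers of over 1% brain, Mt3 fell below the count filter and had no test.

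Small intestine held few Mt3 reads in the same way. Its level had a lowest, median and highest value of 1.34, 3.49 and 9.12 CPM in Mn animals, and of 1.02, 3.58 and 8.73 CPM in vehicle animals. The 2 Mn and 2 vehicle libraries with over 1% of brain held 17 to 25 and 19 to 21 reads, and the 5 others of each treatment held 3 to 12. Mt3 was below the count filter there.

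Brain Slc39a4 had a lowest, median and highest level of 2.66, 3.71 and 10.3 CPM in Mn animals, and of 1.61, 1.97 and 2.93 CPM in vehicle animals. Of the 8 Mn brains, 7 lay above every vehicle brain, yet the gene was below the count filter with 5 to 29 reads in Mn brains and 4 to 7 in vehicle brains. The 2 highest, females 2576 and 2600, held 22 and 29 reads where the liver and small intestine shares predicted 30.5 and 27.9. Mn female 2575, with no share of either tissue, held 5 reads. The 5 Mn males held 9 to 16 reads with 4.98 to 8.01 predicted. Enterocyte markers summed to 10.6 to 887 CPM in Mn brains and to 6.70 to 13.3 CPM in vehicle brains, and hepatocyte markers to 25.5 to 2640 CPM and 14.4 to 110 CPM.

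**Figure D4:**
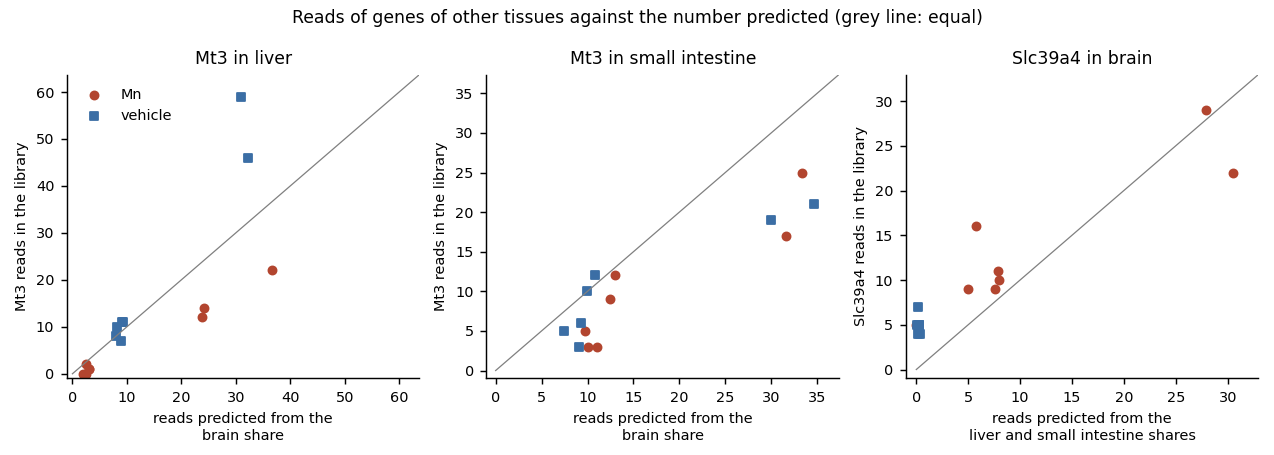
Reads of Mt3 in liver and in small intestine, and of Slc39a4 in brain, against the reads predicted from the estimated share of other tissues in the same library, with Mn as red circles, vehicle as blue squares and equality as a grey line. Libraries with over 20 predicted reads hold the most reads of each gene, and vehicle livers 2627 and 2630 lie above the line at 46 and 59 Mt3 reads. Mn livers 2601 to 2603 and the small intestines with over 1% of brain lie below the line for Mt3.

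The Mn effect was also compared between tissues. For the Mn effect in liver over that in brain, a fit of all 44 libraries gave −1.90 ± 0.50 for Mt3 on the log2 scale (SE, edgeR adjusted p = 0.0120). The liver reads of Mt3 went with the brain share, as given above, and no difference between tissues is read from this value. For Slc39a4 the fit gave −1.22 ± 0.36 (adjusted p = 0.0326). Between small intestine and brain, the Slc39a4 value was −1.34 ± 0.36 (adjusted p = 0.0196). Slc39a4 was below the count filter in brain alone and entered this fit through liver and small intestine, so that no difference between tissues is read from its values. With Slc39a4 counted, 2 of 5 members passed between liver and brain, 1 of 5 between small intestine and brain and 0 of 5 between small intestine and liver, beside backgrounds of 5.77%, 3.83% and 0.0734% of genes. Between small intestine and liver, 1 member, Mt3, had an unadjusted p below 0.05, beside 1514 of 14984 genes.

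With the predicted reads of other tissues subtracted, the Slc39a4 values turned to 0.88 (adjusted p = 0.445) and 0.74 (adjusted p = 0.722). Mt3 was then at 0 in all 8 Mn livers and at 0 to 15.1 CPM in the vehicle livers, and below the count filter of liver. It stayed in the fit of all tissues and passed there between liver and brain. That call rests on liver values set to 0 by the subtraction, and no difference between tissues is read from it. Leaving out single animals ended the Slc39a4 call for 7 of 15 between liver and brain (adjusted p up to 0.118) and for 5 of 15 between small intestine and brain (up to 0.0895), and the Mt3 call for 1 of 15 (vehicle 2630, adjusted p = 0.109). For Mt1, Mt2 and Slc30a1 no difference of the Mn effect between tissues passed.

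Between the sexes, Slc30a1 was somewhat higher in females in each tissue without passing the test. In liver it averaged 49.6 ± 6.92 CPM in Mn females and 39.3 ± 6.56 CPM in Mn males (SD, n = 3 and 5), and 42.3 ± 2.38 CPM in vehicle females and 33.3 ± 2.25 CPM in vehicle males (n = 3 and 4). The female over male log2 difference was 0.29 ± 0.10 in liver (SE, edgeR adjusted p = 0.0885), 0.17 ± 0.08 in brain (adjusted p = 0.756) and 0.24 ± 0.14 in small intestine (adjusted p = 0.657). Every vehicle female liver was above every vehicle male liver.

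The 1 member that passed between the sexes was liver Mt3, lower in females by −2.33 ± 0.65 on the log2 scale (edgeR adjusted p = 0.0308). All 5 livers with over 1% of brain RNA were from males, and without them, or with the predicted reads subtracted, Mt3 was below the count filter. Leaving out single animals ended this call for 7 of 15 (adjusted p up to 0.0850). The counts of members that passed between the sexes, 0 of 4 in brain, 1 of 5 in liver and 0 of 4 in small intestine, stand beside backgrounds of 0.109%, 8.83% and 0.153%. At an unadjusted p below 0.05 brain had 1 member, liver 2 and small intestine 0, beside 827, 2506 and 1042 genes. DESeq2 called 0, 1 and 0 members in these tissues, beside 9, 1006 and 36 genes.

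The Mn effect was compared between females and males with a sex by treatment term, and 0 members passed in brain (0 of 4), liver (0 of 5) or small intestine (0 of 4), beside backgrounds of 0.0622%, 0.0380% and 0% of genes. DESeq2 called 0 members as well, beside 31, 27 and 0 genes. The 1 member with an unadjusted p below 0.05 was intestinal Mt2. It averaged 68.6 ± 29.4 CPM in Mn females and 81.5 ± 16.7 CPM in vehicle females (SD, n = 3 each), and 122 ± 33.2 CPM in Mn males and 65.7 ± 13.6 CPM in vehicle males (n = 4 each). The 4 Mn males, at 90.4 to 161 CPM, were all above the 4 vehicle males, at 55.1 to 85.3 CPM. The female minus male difference of the Mn effect was −1.12 ± 0.35 on the log2 scale (SE, edgeR adjusted p = 0.9998), in a tissue where 324 of 11770 genes reached an unadjusted p below 0.05.

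Mt1 and Mt2, neighbouring genes, moved together from animal to animal in every tissue. The relation was taken over deviations from the means of treatment and sex groups, on the scale of log2(CPM + 1), with 19 relations in the family. These means were taken over both number ranges, and the permutations were within treatment groups only. A Mn effect that differs between the ranges thus stays in every r, also in those within a range. Pearson's r was 0.886 in brain (Spearman's rho 0.907, n = 15, permutation p = 2e-05, adjusted 0.00019), 0.944 in liver (rho 0.975, n = 15, permutation p = 1e-05, the smallest that the permutations can give, adjusted 0.00019) and 0.856 in small intestine (rho 0.811, n = 14, permutation p = 0.00046, adjusted 0.00291). Without the 2 animals farthest from the median of Mt1, r was 0.864, 0.963 and 0.750. Within the ranges 2572 to 2578 and 2600 to 2630, r was 0.844 and 0.855 in brain, 0.954 and 0.970 in liver, and 0.664 and 0.921 in small intestine.

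The liver stood apart in the size of these swings. The SD within groups of log2(CPM + 1) was 1.29 for Mt1 and 1.56 for Mt2, against a median of 0.227 over 8303 genes of at least 10 CPM, which placed them 24th and 4th by spread. In brain the values were 0.188 and 0.241 with a median gene at 0.195, and in small intestine 0.241 and 0.41 with a median gene at 0.2. Liver Slc30a1, at 0.180, and Slc39a4, at 0.274, did not share the spread.

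The ratio of Mt1 to Mt2 reads was tightest in brain. It ran from 2.63 to 3.17 with a median of 2.79 in Mn brains and from 2.52 to 3.31 with a median of 2.68 in vehicle brains. In liver it ran from 2.92 to 6.92 in Mn animals (median 4.0) and from 2.12 to 6.45 in vehicle animals (median 5.17). In small intestine it ran from 3.46 to 7.40 in Mn animals (median 4.69) and from 4.66 to 7.13 in vehicle animals (median 5.87).

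**Figure D5:**
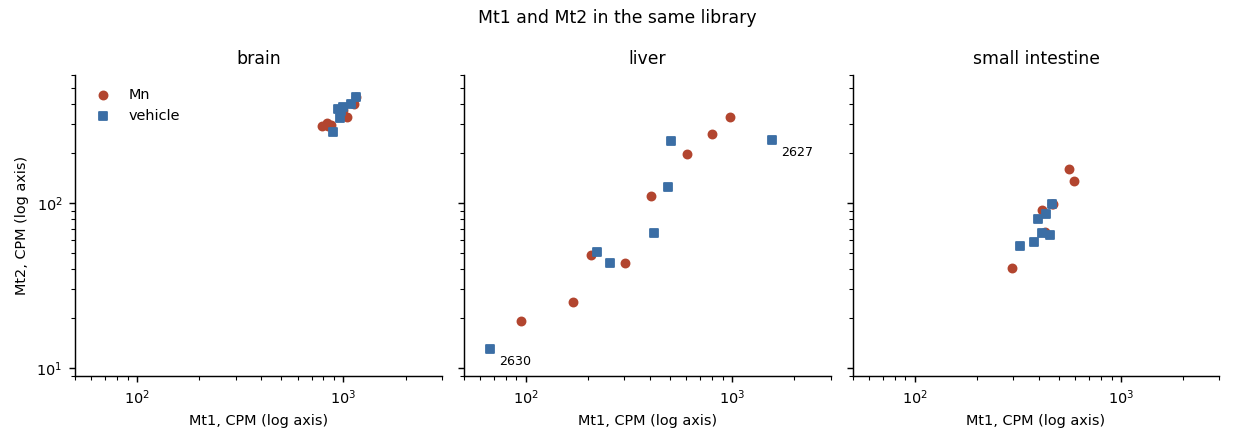
Mt1 against Mt2 level in the same library, in CPM on log axes, by tissue, with Mn as red circles and vehicle as blue squares. The points of brain and small intestine lie close together, whereas the livers spread along a line between vehicle animal 2630 at 67.0 CPM and vehicle animal 2627 at 1560 CPM of Mt1, with both treatments mixed along it.

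Other pairs were looser. In brain, Mt1 moved with Mt3 (r = 0.761, rho 0.793, n = 15, permutation p = 0.00283, adjusted 0.0134), with r of 0.799 without the 2 farthest animals, and of 0.719 and 0.826 within the ranges. Both genes were lower in Mn than in vehicle brains of the range 2600 to 2630. That difference stays in these values, which are therefore no separate check of the relation from animal to animal. Brain Mt1 and Slc30a1 had r = 0.619 (rho 0.596, n = 15, permutation p = 0.0148, adjusted 0.0418), but r was −0.054 within animals 2572 to 2578 and 0.811 within 2600 to 2630, so that the relation did not hold in both ranges, and the adjusted p of its rho was 0.0812. Liver Mt1 and Slc30a1 (r = 0.345, rho 0.332, permutation p = 0.166, adjusted 0.263), and intestinal Mt1 and Slc30a1 (r = −0.0779, rho −0.0505, permutation p = 0.796, adjusted 0.796), did not pass.

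Across tissues of the same animals, Mt1 in brain moved with Mt1 in small intestine (r = 0.712, rho 0.741, n = 14, permutation p = 0.0113, adjusted 0.0418), and Mt2 likewise (r = 0.652, rho 0.692, n = 14, permutation p = 0.0154, adjusted 0.0418). The adjusted p of rho was 0.0337 for Mt1 and 0.0535 for Mt2. Without the 2 farthest animals r was 0.623 and 0.633. Within the ranges 2572 to 2578 and 2600 to 2630 it was 0.475 and 0.673 for Mt1, and 0.704 and 0.420 for Mt2. In these ranges mean Mt1 of Mn animals was 1080 and 833 CPM in brain, and 511 and 392 CPM in small intestine. In vehicle animals it was 995 and 1000 CPM in brain, and 435 and 389 CPM in small intestine. Such shifts between ranges stay in every r here, so that the values within a range are no separate check from animal to animal. Liver Mt1 with brain Mt1 (r = 0.455, rho 0.571, permutation p = 0.0753, adjusted 0.159) and with intestinal Mt1 (r = 0.276, rho 0.323, permutation p = 0.328, adjusted 0.390) did not pass. In all, 7 of the 19 relations had an adjusted p of r below 0.05.

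By the rule of naming the 3 genes with the most similar pattern, Mt2 came first for Mt1 over the 44 libraries (r = 0.953 among 12818 genes of at least 10 CPM), as a description over libraries that share tissues and animals. For Mt3 these were Syp (0.993), a protein of synaptic vesicles, Eno2 (0.992), the neuronal enolase, and Mlc1 (0.992), an astrocyte membrane protein. For Slc39a4 they included Cblc (0.992) and Rbm47 (0.991), an RNA-binding protein of epithelia. Slc30a1 had no close match, with Bhlhe40 (0.582) first. Over deviations within groups, liver Mt1 stood nearest to Mt2 (0.944), Herc6 (0.887) and Gm33543 (0.879), and liver Mt2 also to Lcat (0.883), which esterifies cholesterol in plasma. In brain the closest to Mt1 was Ptges3 (0.965), to Mt2 Natd1 (0.913), to Mt3 Maf1 (0.954) and to Slc30a1 Ppp6r1 (0.966). In small intestine the closest to Mt1 was Pomp (0.934), to Mt2 Il1rl1 (0.918), to Slc30a1 Ctnnd1 (0.880) and to Slc39a4 Nat8f2 (0.924).

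Other genes of zinc and copper handling did not pass either with Mn in any tissue. Of the 9 other zinc exporters of the ZnT family, 7 were tested in brain, 6 in liver and 7 in small intestine, and 0 rose and 0 fell, with median log2 changes of 0.01, −0.05 and 0.04. Of the 13 other ZIP importers, 10 were tested in each tissue and 0 passed, with medians of 0.01, 0.01 and 0.02. The medians of all genes tested were −0.01 in brain, −0.02 in liver and −0.01 in small intestine. The smallest adjusted p of the 2 families in edgeR was 0.0669, for Slc39a8 in liver, a carrier of zinc and manganese that averaged 44.5 ± 6.03 CPM in Mn animals and 33.8 ± 8.60 CPM in vehicle animals (SD, n = 8 and 7). Slc30a10, a manganese exporter despite its family, averaged 488 ± 71.7 CPM in Mn small intestine and 378 ± 49.4 CPM in vehicle small intestine (n = 7 each), with an edgeR adjusted p of 0.117.

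Of 7 genes for MTF1 and its other reported targets, 6 were tested in each tissue and 0 passed, with median log2 changes of −0.03 in brain, 0.13 in liver and 0.01 in small intestine. Mtf1 itself averaged 26.6 ± 4.23 CPM in Mn brain and 28.2 ± 4.43 CPM in vehicle brain (SD, n = 8 and 7), 21.0 ± 3.24 and 19.7 ± 4.37 CPM in Mn and vehicle liver, and 26.0 ± 3.27 and 27.0 ± 4.94 CPM in Mn and vehicle small intestine. Of 12 copper genes, 11, 12 and 12 were tested and 0 passed, with medians of 0.00, 0.11 and 0.07.

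Metallothioneins also answer to glucocorticoids and to the acute phase response, and both lists were counted. Of 8 glucocorticoid receptor targets, 7 were tested in brain, 8 in liver and 8 in small intestine, and 0 passed, with medians of −0.04, 0.17 and −0.23. All 8 estimates in small intestine were negative. How many of all genes had a negative estimate was not counted, here or for the next list. Of 10 acute phase genes in liver, 0 rose and 1 fell, with a median of −0.52 and 10 of 10 estimates negative. The one that fell was Saa2, a serum amyloid, at 44 ± 28.8 CPM in Mn liver (n = 8) and 393 ± 607 CPM in vehicle liver (SD, n = 7), a log2 change of −2.80 ± 0.60 (SE, edgeR adjusted p = 0.0385). In small intestine 4 were tested and 0 passed, with a median of −0.06. In brain 1 was tested: Hpx, the heme-binding plasma protein made by hepatocytes. It averaged 42.6 ± 37.5 CPM in Mn brain (n = 8) and 1.34 ± 2.11 CPM in vehicle brain (SD, n = 7). The log2 change was 4.87 ± 0.63 (edgeR adjusted p = 0.000257), beside the liver shares of those Mn brains given above. Hpx passed the count filter through the Mn brains, and no acute phase response of the brain is read from this value.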

How the data were processed

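Libraries of 3′ TagSeq RNA from brain, liver and small intestine were analysed from the raw counts that the authors deposited for each library. The submitters' processing notes list STAR 2.7.10b, HTSeq 0.2.0, DESeq2 1.12.3, FastQC 0.12.0 and R 4.2.2, with the build GRCm39. The sources used here do not give the use of molecular identifiers or of strand in counting. Spike-in entries (92, with 4 counts in all) and summary entries (5) were left out. They included multi-mapped reads (23.8% to 34.8% of records) and reads outside genes (1.84% to 4.14%). Similar genes such as Mt1 and Mt2 can lose reads in this way. Symbols matched 52083 of 55416 identifiers. The depth of 1796385 to 3798810 assigned reads per library limits genes of a few CPM, and intervals cover reads, not molecules.

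Fits used edgeR 4.0.16 in R 4.3.3: the quasi-likelihood test with TMM scaling, a covariate for sex, filterByExpr (minimum total 15, minimum count 10) and Benjamini-Hochberg adjustment over all genes tested, called at an adjusted p below 0.05, two-sided. Where edgeR raises p to the counting error alone, the SE was widened to match. Tissues were compared in 1 fit of all libraries. The script was tested on simulated data. Relations used 100000 permutations of deviations (Python 3.11.15, scipy 1.17.1). The tissues of an animal were paired by the number in its labels. Deviations from the treatment means, over genes, correlated between tissues with median r of 0.12 (brain and liver, −0.12 to 0.42), 0.13 (brain and small intestine, −0.10 to 0.31) and 0.20 (liver and small intestine, 0.07 to 0.40). Sex and number range were not removed from these deviations, and tissues of different animals were not compared. The values thus do not test the pairing. Each mouse is named as a separate animal. Alternatives were DESeq2 1.42.0 and its size factors, no count filter, no sex covariate, 1 sex, 1 number range, the animal as a block, and corrections for RNA of other tissues. The share of another tissue was the median, over genes of at least 100 CPM in that tissue's vehicle mean, at most 5% of that in the third tissue and at most 0.5% in the lowest library of the target tissue, of their level relative to that mean. Predicted reads are the share times the vehicle mean.

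The genes, gene lists and tests were chosen with earlier results of these data known. The treatment by range term, the range covariate, the 1% limit on brain RNA alone, unscaled library totals and the joint removal of animals 2627 and 2630 were added after seeing the data. The text names the 5 genes, up to 4 passing genes per list and tissue, and genes from the 3 most like each member, of which 1 is not reported here. Other list genes in the text (Slc39a8, Slc30a10, Mtf1) were chosen after their values were seen.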

Additional observations from a re-analysis of the deposited data

Results flagged for a closer look

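The liver level of Mt1 in vehicle animal 2627, 1560 CPM, stood apart from the other 6 vehicle livers, whose highest was 503 CPM, with a gap of 0.708 of the range of the group. The gap was taken on CPM and not on the log2 scale of the tests. It was the 1 such library among 30 groups of libraries checked. Chance gives about 1 in 20 of the groups checked, so that 1 such library is not unusual. The same liver held 2.32% of brain RNA, and its Mt2 of 242 CPM was near the 237 CPM of the next vehicle liver.

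The Mn effect differed between the animal number ranges in brain for Mt1, by −0.424 on the log2 scale (2600 to 2630 minus 2572 to 2578), and for Mt3, by −0.409. Mn and vehicle animals had separate runs of numbers inside each range, and a difference between these runs cannot be told apart from treatment. For Mt3 the fit of all tissues gave −1.90 (liver minus brain), with 0 to 22 reads in Mn livers and 7 to 59 in vehicle livers. These reads were higher where the brain share was higher, and no difference between tissues is read from this value. For Slc39a4 the fit gave −1.22 (liver minus brain) and −1.34 (small intestine minus brain), and 0.88 and 0.744 with the predicted reads of other tissues subtracted. These Slc39a4 values rest on 5 to 29 reads per Mn brain and 4 to 7 per vehicle brain, below the count filter of brain, and no difference is read from them.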

How the results depend on the processing

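Counts of members that passed with Mn over vehicle went to 1 without the count filter in each tissue (Slc39a4 in brain at 1.23, Mt3 in liver at −2.0 and Mt2 in small intestine at 0.45). They went to 2 in brain and 1 in small intestine among animals 2600 to 2630, and to 1 in liver with the range as covariate (Mt3, −2.09, adjusted p = 0.013) or with the shares as covariates (Mt3, −1.51, adjusted p = 0.0324; range over alternatives 5.25e-05 to 0.585). The cause was not tested. Changes that did not pass turned sign under some alternatives. In brain these were Mt1, Mt2 and Mt3 among animals 2572 to 2578 (0.134, 0.104, 0.0839), with shares as covariates (0.0322, 0.00395, 0.034) and without libraries of over 1% of another tissue (0.221, 0.162, 0.272; 1 Mn and 7 vehicle brains left), Mt1 and Mt3 in females (0.0389, 0.0723), and Slc30a1 among animals 2600 to 2630 (−0.00631) and with shares as covariates (−0.073). In liver they were Mt1 among animals 2572 to 2578 (0.133), in females (0.745), without over 1% brain (0.358) and without animals 2627 and 2630 (0.3), Mt2 in the ranges (−0.0964 and −0.308), in males (−0.549) and with shares as covariates (−0.214), and Slc39a4 in females (−0.168) and without animals 2627 and 2630 (−0.051). In small intestine they were Mt1 and Mt2 in females (−0.0532, −0.193), Slc30a1 with the range as covariate (−0.00605), among animals 2572 to 2578 (−0.309), in males (−0.102) and without libraries of over 1% of another tissue (−0.0835) or of brain (−0.00176), and Slc39a4 among animals 2600 to 2630 (0.448) and in females (0.0281). The limit of 1% on all tissues left no vehicle liver and was not fitted there. With predicted reads subtracted, the Mn effect had 1 member between liver and brain (Mt3, at 0 in all Mn livers by the subtraction) and 0 between small intestine and brain, with Slc39a4 at 0.88 and 0.744, and female over male in liver had 0, as it had without over 1% brain. With unscaled totals, small intestine over liver had 1 member, with Slc30a1 at 0.0686. The Mt1 to Slc30a1 relation in brain was −0.054 among animals 2572 to 2578. Leaving out each animal gave −0.49 to 0.516 for liver Mt1, −0.208 to 0.524 for liver Mt2, −0.0068 to 0.126 for liver Slc39a4, −0.0841 to 0.0749 for intestinal Slc30a1, −0.0974 to 0.0702 for intestinal Slc39a4 and −0.715 to 0.0601 for Mt1 in vehicle liver over brain. Its counts ran from 0 to 1 for female over male in liver, 1 to 2 and 0 to 1 for the Mn effect in liver and in small intestine over brain, 3 to 5 for vehicle liver over brain, 0 to 2 for the range term in brain and 0 to 1 in small intestine. The animal as a replicate block gave Mt3 −1.77 and Slc39a4 −1.23 (liver over brain) and Slc39a4 −1.30 (small intestine over brain) for the Mn effect, and changed no other call than those of Mt2 in the report.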
